A study of Mus musculus with 9 samples.

Results

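The 46 genes described here carry or restrain the signal of the T cell receptor (TCR) below its CD3 chains, and were taken from the count table by gene symbol. All 46 were among its 54232 genes and among the 14994 genes tested. By textbook role, 28 of them pass the signal on, 15 restrain it, and 3 (Ptprc, Themis and Thy1) act in both directions.

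RNA was sequenced from regulatory T cells (Treg cells, the Foxp3-expressing T cells that hold immune responses in check) sorted from mouse spleen. There were 3 libraries with the genotype label Usp21/Usp22 Treg KO (called dKO), 3 with the label Usp21 Treg KO (called Usp21 KO) and 3 from WT mice. As labelled, the deletions are in Treg cells: both Usp22 and Usp21 in dKO, and Usp21 in Usp21 KO. Usp21 and Usp22 encode deubiquitinases, enzymes that take ubiquitin off proteins. Every group carried the Foxp3 YFP reporter that served for the sort, and the treatment label is n/a in every library. No group lacked Usp22 alone, so a difference between dKO and WT combines both deletions. Titles number the libraries as separate biological samples, without saying which share a litter, so the p-values measure the spread between these samples. The labels used here give no deleted exons, Cre driver, strain, age or sex.

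In a T cell, the Src-family kinases start the signal at the CD3 chains, and the membrane scaffold LAT, with SLP-76, gathers the enzymes that carry it on. Phospholipase C-gamma then makes a pair of messengers, of which diacylglycerol opens the Ras and protein kinase C-theta arms and inositol trisphosphate opens the calcium, calcineurin and NFAT arm. Csk, tyrosine phosphatases, diacylglycerol kinases, Cbl ubiquitin ligases and Dok and SLAP adaptors each shut down a step. Treg cells need TCR signals for their development and for their suppressive function, and they tune the strength of those signals with these brakes.

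Library totals were 18067377 to 40334577 counts, and the lowest count of any member in any library was 783. Levels are given in CPM, counts per 1000000 of a library size scaled by trimmed mean of M-values (TMM) factors, and "passed" means an adjusted p under 0.05 in edgeR's quasi-likelihood test on all 9 libraries, with Benjamini-Hochberg adjustment over 14994 genes. The deletions were visible in the RNA: Usp21 averaged 27.9 ± 1.59 CPM in dKO, 25.4 ± 2.49 CPM in Usp21 KO and 63.3 ± 2.72 CPM in WT, while Usp22 averaged 25.4 ± 3.58, 73.8 ± 8.64 and 71.1 ± 1.74 CPM in the same groups (SD, n = 3 each). The Treg markers Foxp3, Il2ra, Ctla4, Ikzf2, Cd4 and Cd3e were detected in every library. They summed to 3197–3456 CPM in dKO, 3923–4193 CPM in Usp21 KO and 3883–4039 CPM in WT. Foxp3 itself averaged 333 ± 36.55 CPM in dKO, 730 ± 85.3 CPM in Usp21 KO and 660 ± 34.2 CPM in WT (SD, n = 3 each). Its log2 fold change in dKO was -0.99 against WT (adjusted p = 0.00141) and -1.13 against Usp21 KO (adjusted p = 0.000543). Myeloid marker RNA (10 genes) summed to 355–897 CPM in dKO, 88.0–244 CPM in Usp21 KO and 88.6–285 CPM in WT. CD8 T and NK cell markers (8 genes) summed to 73.2–78.4, 39.4–50.1 and 49.9–59.9 CPM in the same groups, B cell markers (8 genes) to 62.3–70.6, 37.0–56.8 and 33.5–63.4 CPM, erythroid markers (5 of 6 measured) to 33.5–73.7, 20.1–58.9 and 13.9–22.0 CPM, and cell cycle genes (16) to 957–1063, 573–942 and 427–526 CPM. No marker was at 0 in any library. The part of these markers in the differences described next was not tested, and in bulk RNA fewer cells of a type and less RNA per cell cannot be told apart.

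All 46 members were expressed in every library. In WT the mean level ran from 46.9 CPM for Nck1 to 2460.0 CPM for Ptprc, with a median of 279.6 CPM. Per kilobase of exon, the diacylglycerol kinase Dgka was the highest member in WT at 319.7 ± 11.3 CPM per kilobase, followed by the scaffold Lat at 266 ± 12.5 and the surface protein Thy1 at 246 ± 32.6 (SD, n = 3). The length was the union of all annotated exons of a gene, which can exceed that of any single transcript. Ranks between genes depend on this choice: Ptprc, highest by CPM, was given 18313 bases and so lay at 134 CPM per kilobase. The lowest on that scale were the inositol trisphosphate receptor Itpr1 at 5.09 ± 0.279, the Ras activator Sos1 at 5.79 ± 0.332 and the adaptor Themis at 6.30 ± 0.192. These extremes did not sort by role: Dgka is a brake, Lat, Itpr1 and Sos1 are activators, and Thy1 and Themis act in both directions. Among libraries of a group, the median SD of the members was 5.18% of the mean in dKO, 9.25% in Usp21 KO and 4.79% in WT. Over tested genes at or above about the level of the lowest members it was 5.3%, 7.86% and 4.8% in the same order.

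In dKO against WT, 4 of the 46 members (8.7%) passed, beside 5.78% of all genes tested and 6.49% of the 5396 genes with a mean of at least 40 CPM, the range in which the members lie. Protein kinase C-theta (Prkcq) and the adhesion adaptors Skap1 and Fyb fell, as did 2.77% of all genes and 4.95% of those with a mean of at least 40 CPM. Itpr1 rose, beside 3.01% and 1.54%. At an unadjusted p under 0.05 there were 16 members (34.8%), beside 22.4% of all genes. Changes were small. Of the 46 point estimates 34 were lower in dKO, with a median log2 fold change of -0.12 against -0.01 over all genes tested, and the range ran from -0.45 (Dgka) to 0.52 (Itpr1). In 20 members (43.5%) every dKO library was below every WT library, beside 18.4% of all genes tested. In 4 (Cd28, Itpr1, Themis and Thy1) every dKO library was above, beside 17.6%. Without TMM factors, on library totals alone, 10 of the 46 were below, beside 10% of all genes, and 9 of the 46 above, beside 28.3%. The counts thus changed with the scaling, for the members and for all genes. Prkcq, Skap1, Fyb, Grap2, Lcp2, Vav1, Orai1, Csk, Dgka and Dok1 lay below WT in every dKO library under both. Directions, medians and overlaps were set beside all genes tested only, not beside genes with a mean of at least 40 CPM. Among those, more passed as lower than as higher (4.95% and 1.54%). In dKO against Usp21 KO, 6 members (13%) passed, beside 4.9% of all genes and 7.08% of those with a mean of at least 40 CPM. An unadjusted p under 0.05 was found in 18 (39.1%), beside 23.6%. Themis rose, as did 1.7% of all genes and 1.45% of those with a mean of at least 40 CPM. Fyb, Grap2, Orai1, Rasgrp1 and Dok1 fell, beside 3.2% and 5.63%. Every dKO library was below every Usp21 KO library in 14 members (30.4%), beside 14.3% of all genes, and above in 4 (Cd28, Txk, Ptpn22 and Themis), beside 13.1%. With library totals in place of TMM factors 2 members rose (Themis and Ptpn22), beside 4.36% of all genes, and 2 fell (Fyb and Grap2), beside 1.87%. In Usp21 KO against WT no member passed in edgeR, beside 0.0133% of all genes, while 10 members (21.7%) had an unadjusted p under 0.05, beside 10.6% of all genes. DESeq2 called 1 member there (Rasgrp1), beside 1.46% of all genes, and limma voom 0. The dKO libraries enter both of the first comparisons and the WT libraries the first and the third, so these counts are not independent of each other.

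How many members passed changed with the libraries in the fit. Usp21 KO replicate 2 lay apart from its group in many members, as described further on. Without it, 13 members passed in dKO against WT (12 lower, 1 higher, beside 7.61% and 7.44% of all genes tested) and 14 in dKO against Usp21 KO (12 lower, 2 higher, beside 7.31% and 6.79%). The fit on the 3 dKO and 3 WT libraries alone passed the same 13 members, beside 15.7% of all genes. With the replicate number as a block on those 6 libraries, a fit added after the data were seen, 16 members passed (12 lower, 4 higher), beside 20.1% of all genes. Leaving out WT replicate 1 left 0 members past the threshold in dKO against WT in edgeR, with 13 at an unadjusted p under 0.05, beside 193 of all genes that passed. Over the 18 alternative fits the log2 fold change in dKO against WT stayed between -0.45 and -0.34 for Prkcq and between -0.36 and -0.24 for Skap1.

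**Figure D1:**
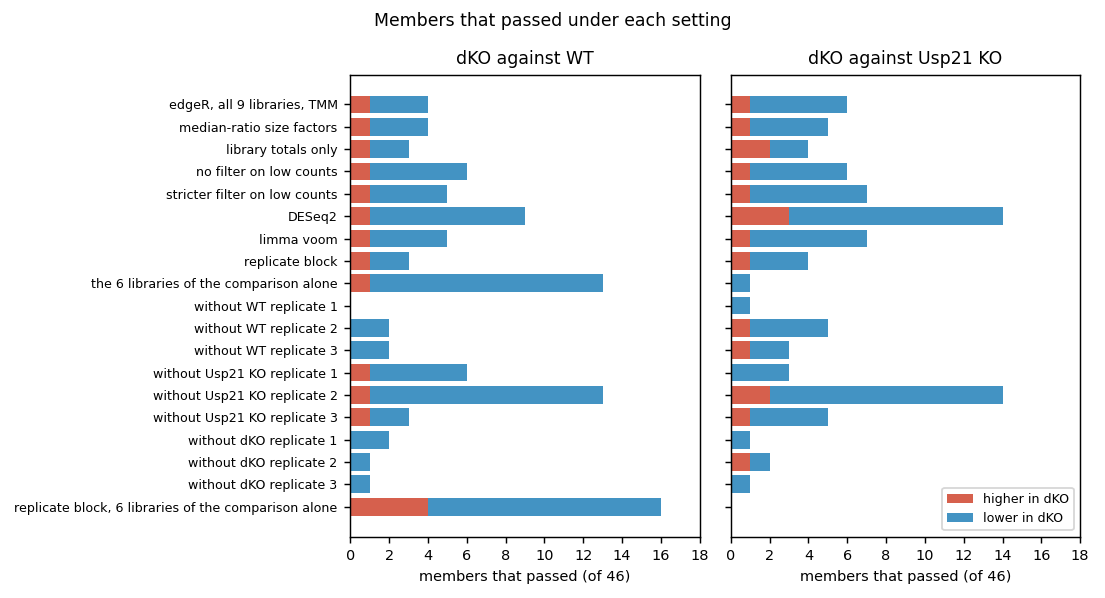
Number of the 46 members that passed (horizontal axis) under each way of fitting the counts (vertical axis), for dKO against WT on the left and dKO against Usp21 KO on the right, with members higher in dKO in red and members lower in dKO in blue. The count in dKO against WT runs from 0 without WT replicate 1 to 16 with the replicate block on the 6 libraries alone, and lower members outnumber higher ones in every fit of that comparison shown except the one without WT replicate 1, where none passed.

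**Figure D2:**
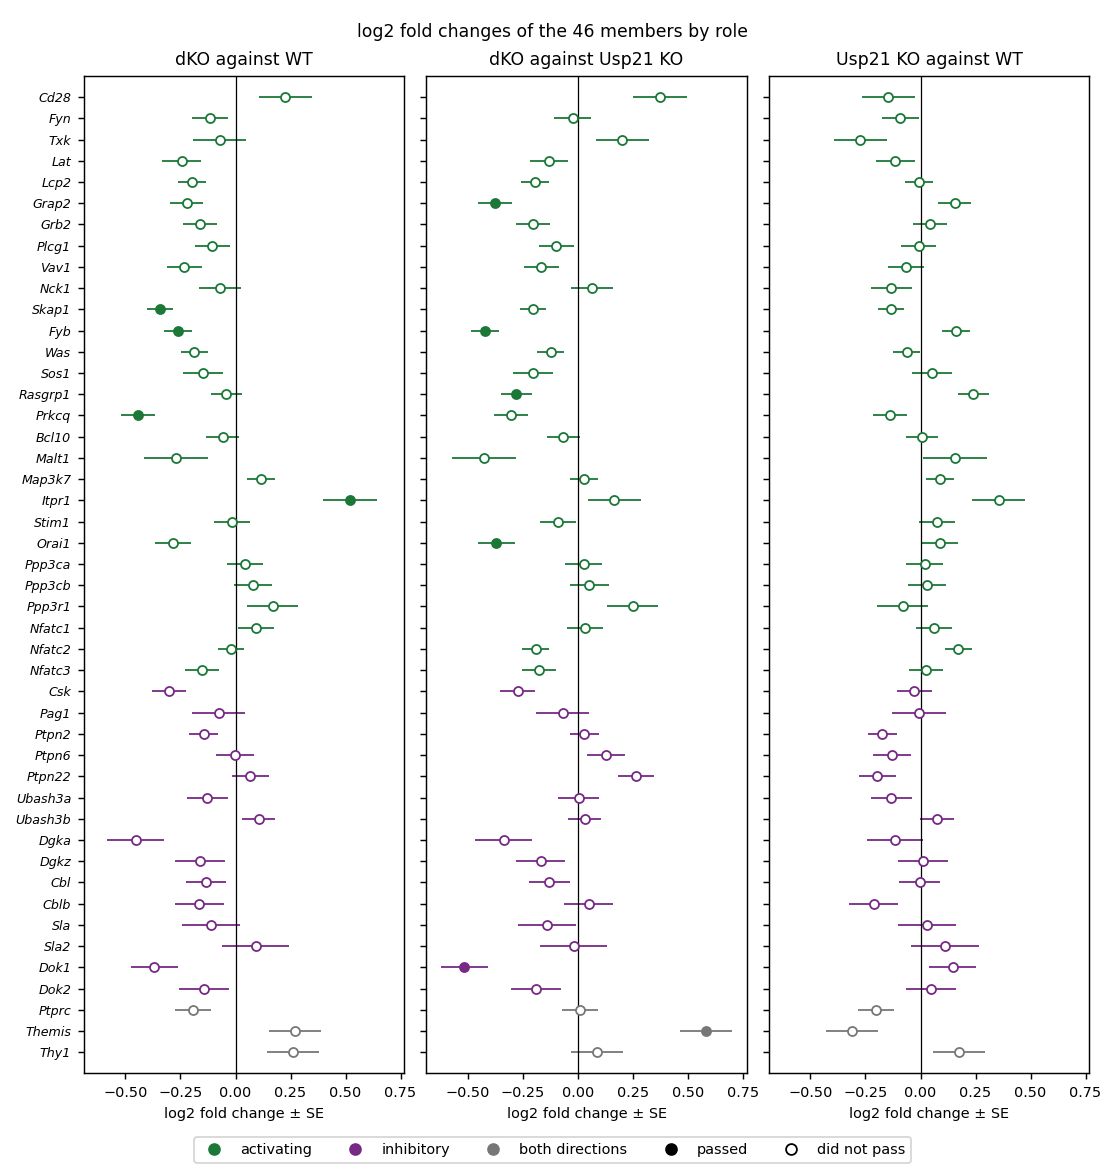
Log2 fold change with its SE (horizontal axis) of each of the 46 members (vertical axis, ordered by role) in dKO against WT, dKO against Usp21 KO and Usp21 KO against WT. Filled points passed, and colours separate activating, inhibitory and both-way members: in dKO against WT 21 of 28 activating and 12 of 15 inhibitory members have a point estimate below 0.

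Of the 9 members that passed in a comparison, 6 had an entry in the RefSeq promoter table (build GRCm38.p6, 250 bases before to 50 after the start). The windows of Prkcq (chr2:11172132-11172431), Fyb (chr15:6579597-6579896), Grap2 (chr15:80623233-80623532) and Themis (chr10:28668110-28668409), all on the plus strand, are shown as examples: a kinase, an adhesion adaptor and a LAT adaptor that fell, and Themis, which rose. Those of Rasgrp1 and Orai1, which also passed in a comparison, are not shown. Capitals mark CG dinucleotides. The window of Themis spans the start of its GENCODE gene, while those of Prkcq, Fyb and Grap2 lie wholly inside theirs.
Prkcq: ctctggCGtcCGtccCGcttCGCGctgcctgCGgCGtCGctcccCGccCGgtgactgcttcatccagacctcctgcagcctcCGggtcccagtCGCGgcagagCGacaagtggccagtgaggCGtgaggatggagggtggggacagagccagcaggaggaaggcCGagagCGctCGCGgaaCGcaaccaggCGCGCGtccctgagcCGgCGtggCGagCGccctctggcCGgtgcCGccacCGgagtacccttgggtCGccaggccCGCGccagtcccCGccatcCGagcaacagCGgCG
Fyb: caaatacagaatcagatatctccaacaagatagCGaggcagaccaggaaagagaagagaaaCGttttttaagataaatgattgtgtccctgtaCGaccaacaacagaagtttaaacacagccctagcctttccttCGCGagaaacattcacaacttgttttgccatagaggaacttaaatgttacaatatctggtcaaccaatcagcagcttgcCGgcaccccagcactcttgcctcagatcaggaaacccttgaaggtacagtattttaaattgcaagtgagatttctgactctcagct
Grap2: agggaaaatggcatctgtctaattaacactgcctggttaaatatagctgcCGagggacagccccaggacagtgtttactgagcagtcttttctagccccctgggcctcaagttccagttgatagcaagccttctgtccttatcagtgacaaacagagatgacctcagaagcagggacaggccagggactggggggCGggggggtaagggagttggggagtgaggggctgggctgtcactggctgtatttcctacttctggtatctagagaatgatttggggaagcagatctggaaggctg
Themis: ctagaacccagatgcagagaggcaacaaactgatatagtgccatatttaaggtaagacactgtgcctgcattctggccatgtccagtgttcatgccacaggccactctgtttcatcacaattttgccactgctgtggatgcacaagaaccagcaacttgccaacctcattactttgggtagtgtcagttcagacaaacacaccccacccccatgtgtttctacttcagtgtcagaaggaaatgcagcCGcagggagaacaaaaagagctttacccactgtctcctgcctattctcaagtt
The Prkcq window is 73.0% G and C with 37 CG dinucleotides, while those of Fyb (42.0%, 6), Grap2 (53.0%, 2) and Themis (47.3%, 1) hold few, beside a median of 52.7% and 7 over all 32851 promoters in the table. The letters CCGGAAGT (ETS), TGTGGT (RUNX), TGTTTAC (forkhead) and GGAAAA (NFAT) were searched on both strands, and the ETS and NFAT letters share GGAA. Grap2 held the forkhead letters at position -179 and the NFAT letters at -248 from its start, and the windows of Prkcq, Fyb and Themis held none of the 4. Of all promoters 3.89% hold the ETS letters, 16.8% the RUNX, 3.65% the forkhead and 23.4% the NFAT letters. Among the 34 members with an entry in the table, 1, 5, 3 and 8 windows hold them in the same order.

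Of the coreceptor and proximal kinases (Cd28, Fyn and Txk), 0 passed in edgeR in any comparison. At an unadjusted p under 0.05 there were 0 in dKO against WT, 1 (Cd28) in dKO against Usp21 KO, which DESeq2 passed, and 1 (Txk) in Usp21 KO against WT. Cd28, the costimulatory receptor, had 309.8, 309 and 410.2 CPM in dKO, 253, 239.6 and 303 CPM in Usp21 KO, and 301, 277 and 302 CPM in WT. Every dKO library was above every WT library, dKO replicate 3 by the widest margin, and the log2 fold change was 0.23 ± 0.12 (SE; adjusted p = 0.305) against WT and 0.37 ± 0.12 (SE; adjusted p = 0.102) against Usp21 KO. It passed against WT only with the replicate block on the 6 libraries alone (adjusted p = 0.0477). Fyn, a Src-family kinase that phosphorylates the CD3 chains, averaged 707 ± 19.4 CPM in dKO, 719.7 ± 64.3 CPM in Usp21 KO and 767 ± 54.3 CPM in WT (SD, n = 3 each), and its groups overlapped. Txk, a Tec-family kinase, had 86.1, 60.0 and 85.7 CPM in Usp21 KO against 99.6, 88.3 and 92.4 CPM in WT. Usp21 KO replicate 2 was the low one, and the log2 fold change was -0.27 ± 0.12 (SE; adjusted p = 0.462), or -0.13 without that library.

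The 7 members of the LAT complex all had lower point estimates in dKO than in WT, with a median log2 fold change of -0.20, and in 6 of the 7 every dKO library lay below every WT library, beside 18.4% of all genes. On library totals alone that held for 3 of the 7 (Lcp2, Grap2 and Vav1), beside 10% of all genes. In edgeR 0 passed in that comparison, with 4 (57.1%) at an unadjusted p under 0.05, beside 22.4% of all genes. DESeq2 passed 1 (Lcp2), beside 10.5% of all genes, and limma voom 0. Grap2 was the 1 that passed in edgeR against Usp21 KO. Grap2 (GADS; ENSMUSG00000042351, chr15:80572594-80652854, GRCm38), which ties SLP-76 to LAT, had 349.9, 362 and 361 CPM in dKO, 498, 415 and 481 CPM in Usp21 KO, and 407, 412 and 432 CPM in WT. It was below both other groups in every dKO library and fell against Usp21 KO, with a log2 fold change of -0.38 ± 0.076 (SE; adjusted p = 0.0229), while that against WT was -0.22 ± 0.075 (SE; adjusted p = 0.117). Without Usp21 KO replicate 2 it passed in both (adjusted p = 0.00054 and 0.0166). The call against Usp21 KO was lost when dKO replicate 1 (0.0902), 2 (0.078) or 3 (0.0859), Usp21 KO replicate 1 (0.0751) or WT replicate 1 (0.0507) was left out, all adjusted p, and in the 6 libraries alone (0.0834).

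Lat itself, the membrane scaffold, had 637, 665 and 558 CPM in dKO, against 770.5, 701 and 733 CPM in WT. All dKO values lay below all WT values, and the log2 fold change was -0.24 ± 0.087 (SE; adjusted p = 0.133). Lcp2, which encodes SLP-76, had 567, 548 and 539.7 CPM in dKO, 669, 608 and 615 CPM in Usp21 KO, and 614, 654 and 632 CPM in WT. Its dKO libraries were below those of both other groups, with -0.20 ± 0.064 (SE; adjusted p = 0.102) against WT and -0.19 ± 0.064 (SE; adjusted p = 0.105) against Usp21 KO. Vav1, the exchange factor that activates Rac, had 307, 299 and 269 CPM in dKO against 344, 336 and 349 CPM in WT, a log2 fold change of -0.23 ± 0.08 (SE; adjusted p = 0.118). Without Usp21 KO replicate 2 the adjusted p in dKO against WT was 0.0362 for Lat, 0.0366 for Lcp2 and 0.0303 for Vav1, so these 3 passed in that fit. In it 7.61% of all genes passed as lower, beside 2.77% in the fit on all 9 libraries. Grb2, the adaptor that brings Sos to LAT, and Plcg1, the phospholipase that makes the 2 messengers, also had every dKO library below every WT library, with smaller log2 fold changes of -0.16 ± 0.077 (SE; adjusted p = 0.245) and -0.11 ± 0.08 (SE; adjusted p = 0.47). Nck1, an adaptor to the actin machinery, overlapped between groups at 44.6 ± 3.50 CPM in dKO, 42.8 ± 4.26 CPM in Usp21 KO and 46.9 ± 3.03 CPM in WT (SD, n = 3 each).

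In the adhesion and actin group, 2 of 3 members passed in dKO against WT, both lower. This was beside 2.77% of all genes and 4.95% of those with a mean of at least 40 CPM. In all 3 every dKO library lay below every WT library, beside 18.4% of all genes. On library totals alone that held for Skap1 and Fyb, beside 10% of all genes. Skap1 and Fyb (ADAP) bind each other and couple the TCR to integrins. Skap1 (ENSMUSG00000057058, chr11:96464593-96759130) had 249.7, 249.6 and 236 CPM in dKO, 291, 272 and 284 CPM in Usp21 KO, and 315, 304 and 314 CPM in WT. The 3 groups did not overlap, dKO being lowest and WT highest. Skap1 fell to 78.9% of the WT mean, a log2 fold change of -0.34 ± 0.059 (SE; adjusted p = 0.0107), and the one against Usp21 KO was -0.20 ± 0.059 (SE; adjusted p = 0.0717). It passed against WT in 17 of the 18 alternative fits, the exception being the one without WT replicate 1 (adjusted p = 0.0641).

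Fyb (ENSMUSG00000022148, chr15:6522853-6663313) had 531, 519.8 and 508 CPM in dKO, 729.5, 668 and 693 CPM in Usp21 KO, and 598, 623 and 650.0 CPM in WT. In Fyb the order differed from that of Skap1: dKO was lowest, and every Usp21 KO library was above every WT library. Fyb fell against Usp21 KO, with a log2 fold change of -0.42 ± 0.064 (SE; adjusted p = 0.00767), and against WT, with a log2 fold change of -0.26 ± 0.064 (SE; adjusted p = 0.0409). Fyb passed against Usp21 KO in 17 of 18 alternative fits, the exception being the replicate block on the 6 libraries alone (0.118). Against WT it passed in 8 of 18, and was lost with any 1 of these left out: dKO replicate 1 (adjusted p = 0.102), 2 (0.128) or 3 (0.135), Usp21 KO replicate 3 (0.0551), WT replicate 1 (0.101), 2 (0.115) or 3 (0.14), and with the replicate block (0.0789). The call against WT was also lost on library totals alone, without TMM factors, and with no filter on low counts. Exons of other annotated genes cover 4.29% of the Fyb exons on the same strand and 5.93% on the opposite one. Was, which encodes the actin regulator WASP, had 263, 273 and 254 CPM in dKO against 309, 285 and 306 CPM in WT. Its dKO libraries were again the lowest, at a log2 fold change of -0.19 ± 0.061 (SE; adjusted p = 0.104).

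**Figure D3:**
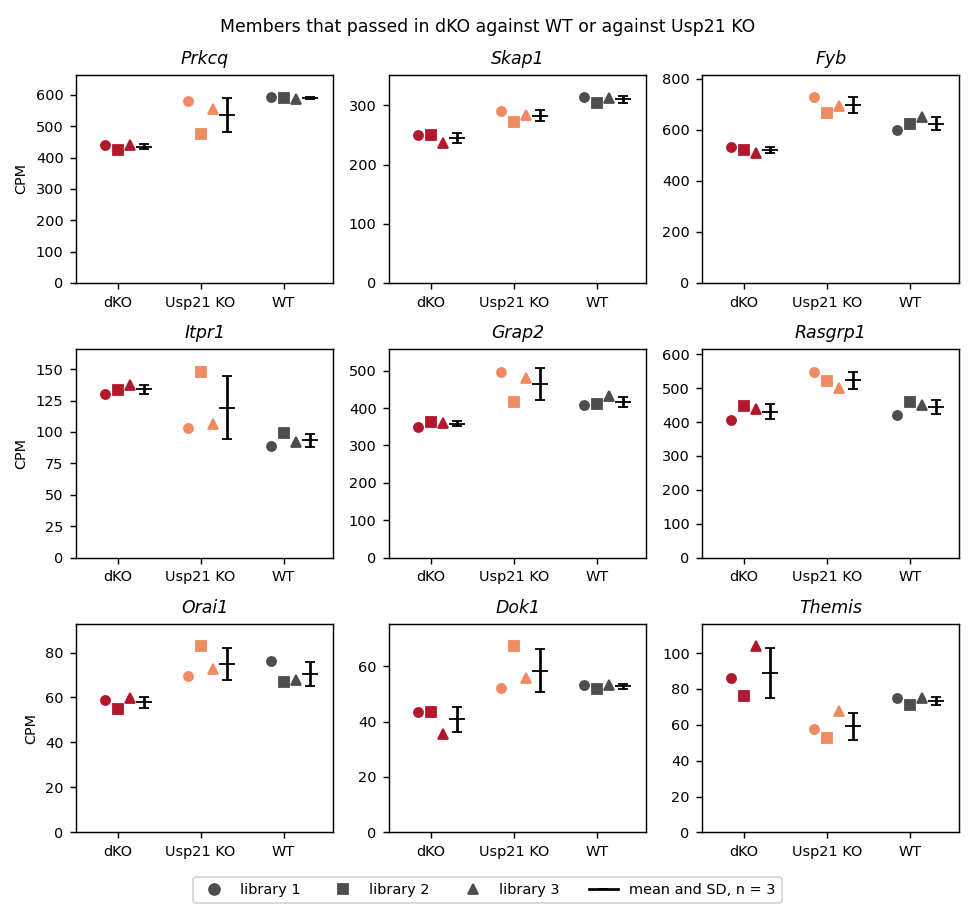
CPM (vertical axes, from 0) of the 9 members that passed in dKO against WT or dKO against Usp21 KO, in each of the 3 dKO, 3 Usp21 KO and 3 WT libraries, with marker shapes for the library number and bars for the mean and SD. Prkcq, Skap1, Fyb, Grap2, Orai1 and Dok1 are lowest in dKO, Themis and Itpr1 are higher in every dKO library than in every WT library, and Usp21 KO replicate 2 sits apart in Itpr1, Orai1 and Dok1.

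The Ras arm has 2 members. Rasgrp1 (ENSMUSG00000027347, chr2:117279993-117343001), the Ras activator recruited by diacylglycerol, had 405, 448 and 438 CPM in dKO, 549, 520.4 and 500.2 CPM in Usp21 KO, and 419.9, 459 and 450.4 CPM in WT. Here Usp21 KO was the group that stood apart, with every library above all those of dKO and WT, while dKO and WT overlapped. Rasgrp1 fell in dKO against Usp21 KO, with a log2 fold change of -0.28 ± 0.07 (SE; adjusted p = 0.0485), and was at -0.04 ± 0.07 (SE; adjusted p = 0.768) against WT. In Usp21 KO against WT it was at 0.24 ± 0.07 (SE; adjusted p = 0.309), which DESeq2 called. The call in dKO against Usp21 KO was the least stable of those reported here: 4 of 18 alternative fits kept it, and it was lost on leaving out dKO replicate 1 (0.158), 2 (0.0995) or 3 (0.123), Usp21 KO replicate 1 (0.139) or 3 (0.0542), or WT replicate 1 (0.0785), 2 (0.0575) or 3 (0.0809), all adjusted p. Sos1, the other Ras activator, averaged 55.2 ± 4.23 CPM in dKO, 63.6 ± 6.58 CPM in Usp21 KO and 61.3 ± 3.52 CPM in WT (SD, n = 3 each), and its groups overlapped.

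Prkcq (ENSMUSG00000026778, chr2:11172108-11301222), the kinase that diacylglycerol recruits to the synapse and that leads to NF-kB, had the largest fall among the members that passed in dKO against WT. It had 440.2, 425 and 439.7 CPM in dKO, 580.2, 475 and 555 CPM in Usp21 KO, and 594, 590.5 and 587 CPM in WT. The WT libraries lay within a few CPM of each other, every dKO library was below every other library, and Usp21 KO replicate 2 was the Usp21 KO library nearest to dKO. Prkcq fell to 73.7% of the WT mean, a log2 fold change of -0.44 ± 0.077 (SE; adjusted p = 0.0115). Against Usp21 KO it was at -0.30 ± 0.077 (SE; adjusted p = 0.0522), and at 0.00132 (adjusted p) without Usp21 KO replicate 2. It passed against WT in 15 of 18 alternative fits and was lost when dKO replicate 2 (adjusted p = 0.0577) or 3 (0.0504) or WT replicate 1 (0.0612) was dropped.

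Downstream of Prkcq, the paracaspase Malt1 had 156, 161 and 167 CPM in dKO, 190.4, 275 and 184 CPM in Usp21 KO, and 189, 219 and 175 CPM in WT. The dKO libraries were the 3 lowest of the 9, and Usp21 KO replicate 2 was far above all others. The log2 fold change was -0.27 ± 0.14 (SE; adjusted p = 0.308) against WT, and -0.27 (adjusted p = 0.0319) without that library. Bcl10, the partner of Malt1, and Map3k7, the kinase TAK1 that acts after them, showed no such order: their log2 fold changes in dKO against WT were -0.06 ± 0.074 (SE; adjusted p = 0.687) and 0.12 ± 0.065 (SE; adjusted p = 0.325), with overlapping groups in all 3 comparisons.

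In the calcium and NFAT arm, of 9 members, Itpr1 rose in dKO against WT and Orai1 fell in dKO against Usp21 KO. Itpr1 (ENSMUSG00000030102, chr6:108213096-108551109), the receptor through which inositol trisphosphate releases calcium from the endoplasmic reticulum, had 130.4, 134 and 138 CPM in dKO, 104, 148 and 107 CPM in Usp21 KO, and 88.8, 98.9 and 92.2 CPM in WT. It was higher in every dKO library than in every WT library, and Usp21 KO replicate 2 was the highest of all 9. Itpr1 rose to 143% of the WT mean in dKO, a log2 fold change of 0.52 ± 0.12 (SE; adjusted p = 0.0359), while in Usp21 KO against WT it was at 0.35 ± 0.12 (SE; adjusted p = 0.345), or 0.16 without Usp21 KO replicate 2. The call did not survive leaving out dKO replicate 1 (0.0923), 2 (0.108) or 3 (0.131) or WT replicate 1 (0.142), 2 (0.0819) or 3 (0.112), and without Usp21 KO replicate 2 it had an adjusted p of 7.61e-05.

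Orai1 (ENSMUSG00000049686, chr5:123015074-123030456), the pore of the channel that lets calcium in from outside the cell, had 59.0, 55.0 and 59.6 CPM in dKO, 69.4, 82.8 and 72.5 CPM in Usp21 KO, and 76.4, 67.0 and 68.0 CPM in WT. Its dKO libraries were below those of both other groups. Orai1 fell against Usp21 KO, with a log2 fold change of -0.37 ± 0.084 (SE; adjusted p = 0.0351), and was at -0.28 ± 0.083 (SE; adjusted p = 0.078) against WT. The call against Usp21 KO was lost when dKO replicate 1 (0.0987), 2 (0.121) or 3 (0.098) or WT replicate 1 (0.0524) or 3 (0.0618) was left out, all adjusted p, and in the 6 libraries alone (0.0852), while without Usp21 KO replicate 2 Orai1 passed against both (0.0304 against Usp21 KO and 0.017 against WT). Stim1, the calcium sensor that opens Orai1, overlapped between groups, at 160.5 ± 3.33 CPM in dKO, 171 ± 19.9 CPM in Usp21 KO and 162 ± 6.45 CPM in WT (SD, n = 3 each).

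Calcineurin, the phosphatase that sends NFAT into the nucleus, was represented by its catalytic subunits Ppp3ca and Ppp3cb and its regulatory subunit Ppp3r1. Their log2 fold changes in dKO against WT were 0.04 ± 0.083 (SE; adjusted p = 0.797), 0.08 ± 0.087 (SE; adjusted p = 0.632) and 0.17 ± 0.12 (SE; adjusted p = 0.426), and all 3 overlapped between groups. For Ppp3r1 the dKO value rested on replicate 3 (88.6, 91.0 and 121 CPM in dKO), and 14.3% of its exons are shared with Wdr92 on the same strand. The NFAT genes split: Nfatc1 was at 0.09, Nfatc2 at -0.02 and Nfatc3 at -0.15 (log2 fold change in dKO against WT; adjusted p = 0.543, 0.873 and 0.286). Nfatc2 had 231, 235 and 235 CPM in Usp21 KO against 199, 221 and 201 CPM in WT, with no overlap and a log2 fold change of 0.17 ± 0.06 (SE; adjusted p = 0.349).

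Among the brakes, none of the 15 passed in dKO against WT in edgeR, beside 5.78% of all genes. At an unadjusted p under 0.05 there were 3 (20%; Csk, Dgka and Dok1), beside 22.4% of all genes. DESeq2 passed those 3, beside 10.5% of all genes, and limma voom 1 (Csk), beside 945 of the 14994 genes. Dok1 was the 1 brake that passed against Usp21 KO, beside 4.9% of all genes. Csk, the kinase that switches off Src-family kinases, had 554, 529 and 499 CPM in dKO, 679, 577 and 657 CPM in Usp21 KO, and 667, 614 and 669 CPM in WT. All dKO libraries were below all others, and the log2 fold change was -0.30 ± 0.079 (SE; adjusted p = 0.0524) against WT and -0.27 ± 0.079 (SE; adjusted p = 0.072) against Usp21 KO. Without Usp21 KO replicate 2 both passed (adjusted p = 0.00513 and 0.00649). Pag1, the membrane anchor of Csk, had 137 ± 11.2 CPM in dKO, 144 ± 25.9 CPM in Usp21 KO and 144 ± 8.40 CPM in WT (SD, n = 3 each), with no separation of the groups.

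The diacylglycerol kinases convert diacylglycerol into phosphatidic acid and so end the signal to Rasgrp1 and Prkcq. Dgka had 1126, 1160.0 and 1047 CPM in dKO, 1658, 1087 and 1466 CPM in Usp21 KO, and 1509, 1581 and 1476 CPM in WT. Every dKO library was below every WT library, while Usp21 KO replicate 2 lay within the dKO range, and the log2 fold change against WT was -0.45 ± 0.13 (SE; adjusted p = 0.0701). It had the lowest point estimate of the 46, at 73.0% of the WT mean. Without Usp21 KO replicate 2 the estimate was -0.45 and passed (adjusted p = 0.00038), as it did against Usp21 KO (-0.48, adjusted p = 0.000811). Dgkz had 997, 1008 and 912 CPM in dKO against 1045, 1128 and 1086 CPM in WT. It was also lower in every dKO library, with a smaller log2 fold change of -0.16 ± 0.11 (SE; adjusted p = 0.44). The ratio of Dgka to Dgkz per kilobase of exon was 1.49, 1.52 and 1.51 in dKO, 1.77, 1.63 and 1.64 in Usp21 KO, and 1.90, 1.85 and 1.79 in WT. This ratio did not overlap between the 3 groups, though neither gene passed in any comparison in edgeR on all 9 libraries. Ratios of other pairs of related members were also computed, and none of those separated all 3 groups. How often gene pairs separate in this way over all genes was not counted.

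Among the tyrosine phosphatases, 3 of 5 point estimates were lower in dKO than in WT and none passed in edgeR, with 0 at an unadjusted p under 0.05. In dKO against Usp21 KO all 5 point estimates were above 0, from close to 0 (Ubash3a) to 0.26 (Ptpn22), and 0 passed in edgeR or limma voom, with 1 (Ptpn22) at an unadjusted p under 0.05, which DESeq2 passed. Ptpn22, which removes phosphate from Src-family kinases, had 347, 373 and 372 CPM in dKO, 309.5, 286 and 314 CPM in Usp21 KO, and 323, 389.5 and 330.1 CPM in WT. Every dKO library was above every Usp21 KO library, with a log2 fold change of 0.26 ± 0.083 (SE; adjusted p = 0.0914), while dKO and WT overlapped. Ptpn2, a phosphatase of Src and Jak kinases, had 77.4, 79.8 and 85.6 CPM in dKO, 82.6, 76.5 and 78.8 CPM in Usp21 KO, and 86.8, 94.4 and 87.2 CPM in WT. Both knockouts were below WT in every library, with -0.14 ± 0.066 (SE; adjusted p = 0.229) in dKO and -0.17 ± 0.066 (SE; adjusted p = 0.391) in Usp21 KO. Ptpn6 (SHP1) averaged 342 ± 30.4 CPM in dKO, 312 ± 27.9 CPM in Usp21 KO and 342 ± 3.91 CPM in WT (SD, n = 3 each). Ubash3a and Ubash3b, phosphatase-family suppressors of TCR signalling, had log2 fold changes of -0.13 ± 0.093 (SE; adjusted p = 0.449) and 0.10 ± 0.076 (SE; adjusted p = 0.452) in dKO against WT.

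The ubiquitin ligases Cbl and Cblb, which mark receptor and kinase for destruction, had log2 fold changes of -0.14 ± 0.092 (SE; adjusted p = 0.424) and -0.17 ± 0.11 (SE; adjusted p = 0.416) in dKO against WT. Cblb had 210.3, 228 and 229.5 CPM in dKO, 239, 178 and 228 CPM in Usp21 KO, and 231, 277 and 239.7 CPM in WT. All dKO libraries were below all WT libraries, by a narrow margin, and Usp21 KO replicate 2 was the lowest of the 9.

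Of the inhibitory adaptors, Dok1 (ENSMUSG00000068335, chr6:83030934-83033471), which recruits the Ras GTPase-activating protein, had 43.4, 43.6 and 35.6 CPM in dKO, 52.3, 67.2 and 55.6 CPM in Usp21 KO, and 53.1, 51.7 and 53.3 CPM in WT. It was below both other groups in every dKO library, with dKO replicate 3 lowest and Usp21 KO replicate 2 highest. Dok1 fell against Usp21 KO, with a log2 fold change of -0.52 ± 0.11 (SE; adjusted p = 0.0259), and was at -0.37 ± 0.11 (SE; adjusted p = 0.0731) against WT. The call against Usp21 KO did not hold when dKO replicate 1 (0.069), 2 (0.0647) or 3 (0.098) or WT replicate 1 (0.0557) or 3 (0.0504) was left out, all adjusted p, and in the 6 libraries alone (0.0896). With Usp21 KO replicate 2 left out, Dok1 passed in both comparisons, at 0.0145 against Usp21 KO and 0.01 against WT. Its relative Dok2 moved less, with a log2 fold change of -0.14 ± 0.11 (SE; adjusted p = 0.489) against WT, and the ratio of Dok2 to Dok1 per kilobase was 2.81 ± 0.05 in dKO, 2.25 ± 0.255 in Usp21 KO and 2.41 ± 0.131 in WT (SD, n = 3 each). The SLAP adaptors Sla and Sla2, which promote turnover of the receptor, had log2 fold changes of -0.11 ± 0.13 (SE; adjusted p = 0.661) and 0.09 ± 0.15 (SE; adjusted p = 0.768) against WT. Exons of Rab5if cover 23.6% of the Sla2 exons on the opposite strand, so its count may hold reads of that gene.

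Of the 3 genes that act in both directions, Themis (ENSMUSG00000049109, chr10:28668360-28883818), an adaptor of the LAT complex that also sets the activity of SHP1, had 86.1, 76.2 and 104 CPM in dKO, 57.7, 52.7 and 67.5 CPM in Usp21 KO, and 74.8, 71.0 and 74.9 CPM in WT. Each dKO library was above every WT library, and each Usp21 KO library was below every WT library. Themis rose in dKO against Usp21 KO, with a log2 fold change of 0.58 ± 0.12 (SE; adjusted p = 0.0238), and was at 0.27 ± 0.12 (SE; adjusted p = 0.202) in dKO against WT and -0.31 ± 0.12 (SE; adjusted p = 0.388) in Usp21 KO against WT. The call against Usp21 KO was lost on leaving out dKO replicate 1 (0.0728) or 3 (0.0865), Usp21 KO replicate 1 (0.0829) or WT replicate 1 (0.0508), all adjusted p, and in the 6 libraries alone (0.0853). Against WT it passed with the replicate block on the 6 libraries alone (0.0205).

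Thy1, a surface protein that can stimulate or restrain the TCR signal, had 929, 885 and 833 CPM in dKO, 786, 959.5 and 747 CPM in Usp21 KO, and 792, 623 and 792 CPM in WT. Every dKO library was above every WT library, WT replicate 2 being the lowest, at a log2 fold change of 0.26 ± 0.12 (SE; adjusted p = 0.217). It passed with the replicate block on the 6 libraries alone (0.0212). Ptprc, which encodes CD45, the phosphatase that both primes and restrains Src-family kinases, was the most abundant member by CPM. It averaged 2153 ± 197 CPM in dKO, 2140.0 ± 89.7 CPM in Usp21 KO and 2460.0 ± 133 CPM in WT (SD, n = 3 each), with -0.19 ± 0.081 (SE; adjusted p = 0.195) in dKO and -0.20 ± 0.081 (SE; adjusted p = 0.419) in Usp21 KO, each against WT.

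**Figure D4:**
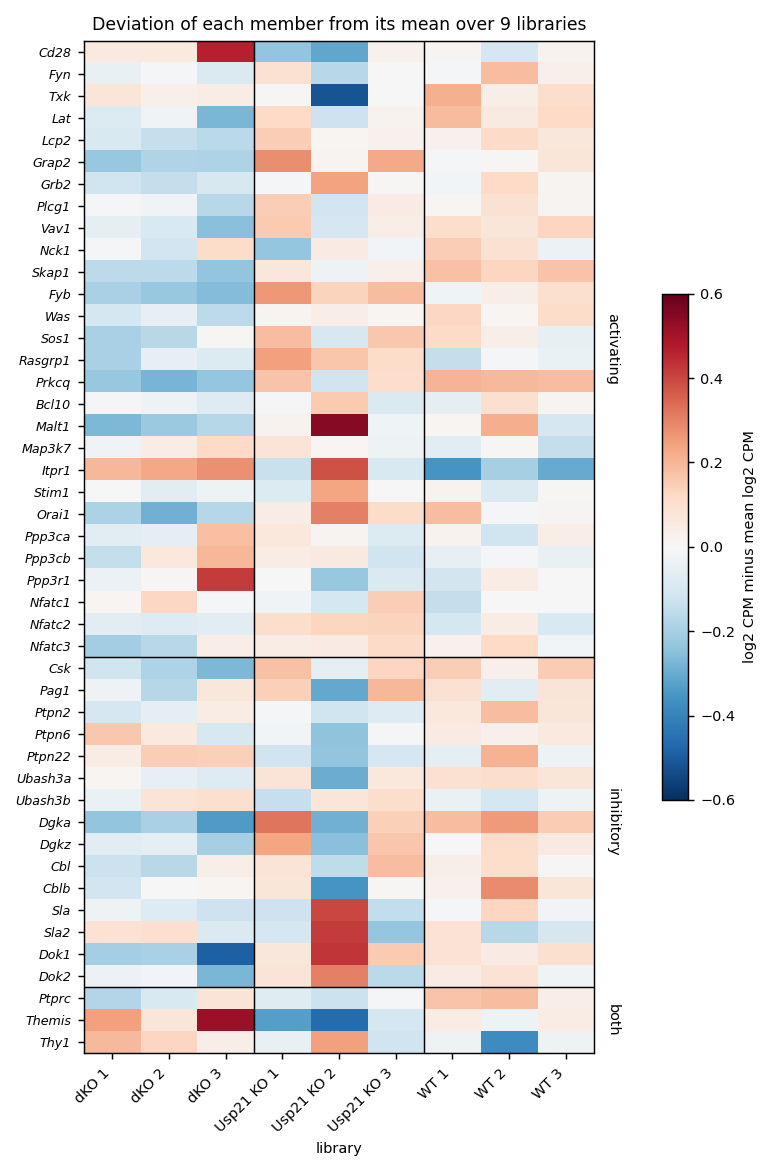
Log2 CPM of each member minus its mean over the 9 libraries (colour scale, -0.6 to 0.6) for the 46 members (vertical axis) in the 3 dKO, 3 Usp21 KO and 3 WT libraries (horizontal axis). On this TMM-scaled level the LAT complex, Skap1, Fyb, Prkcq, Csk and Dgka are mostly blue in dKO, and Usp21 KO replicate 2 holds the strongest colours in many genes, such as red for Malt1, Sla, Sla2 and Dok1 and blue for Txk, Cblb and Pag1.

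On TMM-scaled levels, the point estimates of activators and of brakes were mostly lower in dKO. Against WT, the median log2 fold change was -0.11 over the 28 activating members (21 lower point estimates) and -0.14 over the 15 inhibitory ones (12 lower), beside -0.01 over all genes. Against Usp21 KO the medians were -0.13 for activators and -0.07 for brakes. Without dKO replicate 3 they were -0.094 and -0.113, so which role was lower turned on that library. In Usp21 KO against WT they were 0.02 and -0.01, with 12 of 28 and 9 of 15 point estimates lower, and leaving out 1 library moved them between -0.01 (without Usp21 KO replicate 2) and 0.042 for activators and between -0.079 (without Usp21 KO replicate 3) and -0.006 for brakes. Scaling by library totals alone, without TMM factors, shifted the median of all genes in dKO against WT by 0.099 on the log2 scale and gave medians of -0.01 for activators and -0.04 for brakes beside 0.09 for all genes. A change of scaling moves all genes by nearly the same amount, so it cannot test where the roles lie relative to all genes. The medians of all genes were not taken for those with a mean of at least 40 CPM.

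By library, the mean log2 deviation of the activating members was -0.085, -0.072 and -0.03 in dKO, 0.056, 0.023 and 0.035 in Usp21 KO, and 0.018, 0.042 and 0.014 in WT. That of the inhibitory members was -0.054, -0.052 and -0.104 in dKO, 0.049, -0.045 and 0.029 in Usp21 KO, and 0.054, 0.083 and 0.041 in WT. In both roles all dKO libraries were below all others on this scale. On library totals alone they were not: activators were at -0.027, -0.005 and 0.039 in dKO and -0.007, -0.011 and -0.013 in WT, and brakes at 0.004, 0.014 and -0.035 in dKO and 0.029, 0.03 and 0.014 in WT. The summed CPM of activators over that of brakes was 1.43, 1.45 and 1.51 in dKO, 1.41, 1.58 and 1.43 in Usp21 KO, and 1.40, 1.38 and 1.42 in WT. The dKO ratios of sums were all above the WT ratios, by little, and the Usp21 KO ratios spanned both. With every member weighted equally the groups overlapped: the mean log2 deviation of activators minus that of brakes was -0.031, -0.02 and 0.074 in dKO, 0.007, 0.068 and 0.006 in Usp21 KO, and -0.036, -0.041 and -0.027 in WT. Dgka and Dgkz together held 39.8%, 40.6% and 38.5% of the inhibitory sum in dKO, 46.2%, 37.8% and 44.1% in Usp21 KO and 42.8%, 43.5% and 43% in WT.

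**Figure D5:**
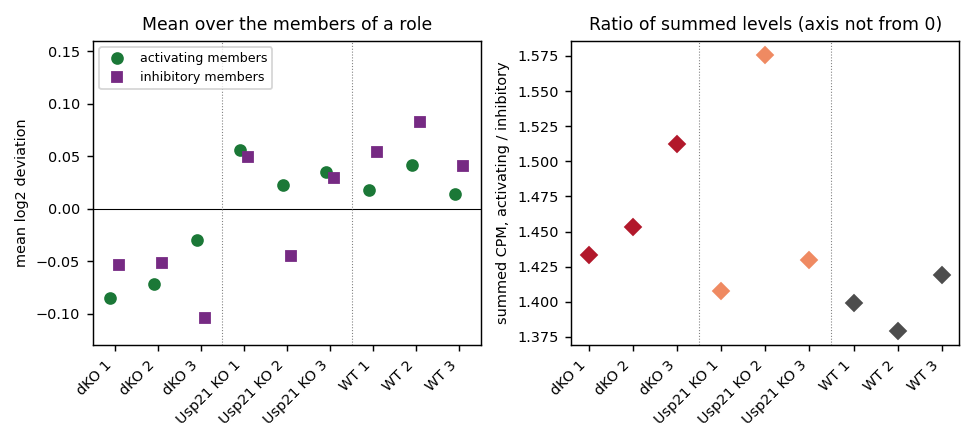
Left, mean log2 deviation of TMM-scaled levels from the 9-library mean (vertical axis) over the 28 activating members (circles) and the 15 inhibitory members (squares) in each library (horizontal axis). Right, summed CPM of the activating over that of the inhibitory members in each library, on an axis that does not start at 0; all dKO ratios (1.43 to 1.51) lie above the WT ratios (1.38 to 1.42), and Usp21 KO replicate 2 is highest at 1.58.

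Usp21 KO replicate 2 was the highest or lowest of the 9 libraries in 23 of the 46 members (11 highest, 12 lowest), beside 39.8% of all genes tested. Relative to the mean of the other 2 Usp21 KO libraries, it was low in the diacylglycerol kinases (Dgka 69.6%, Dgkz 73.0%), in Txk (69.9%), Pag1 (71.9%), Cblb (76.0%) and Ubash3a (77.6%). It was high in Sla2 (150.1%), Malt1 (146%), Sla (145%), Itpr1 (141%) and Dok2 (127%). The same library had a mean log2 deviation of 0.658 over 12 effector Treg genes, beside -0.231 in replicate 1 and -0.254 in replicate 3 of that group, and of -0.692 over 10 resting T cell genes, against 0.063 and 0.129. Its cell cycle genes summed to 942 CPM, against 573 and 602 CPM. The part of these genes in its member levels was not tested. Genes known to be induced by TCR signals (21 genes) summed to 7775 CPM in Usp21 KO replicate 1 and 8793 CPM in WT replicate 2, and to 4010–5483 CPM in the other 7 libraries.

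In Usp21 KO against WT the point estimates of the members ran from -0.31 (Themis) to 0.35 (Itpr1), and without Usp21 KO replicate 2 from -0.24 (Themis) to 0.23 (Rasgrp1). In 4 members (Fyb, Rasgrp1, Itpr1 and Nfatc2) every Usp21 KO library was above every WT library, beside 8.06% of all genes, and in 8 (17.4%; Txk, Skap1, Prkcq, Ptpn2, Ptpn6, Ptpn22, Ptprc and Themis) every one was below, beside 8% of all genes. A p above the threshold with 3 libraries a group does not show that the groups are alike.

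Other genes of the pathway were read from lists of 35 further activating, 28 further inhibitory and 21 TCR-induced genes. In dKO against WT, 0 of 35 activating genes passed in edgeR, beside 5.78% of all genes, with 11 at an unadjusted p under 0.05, beside 22.4%. DESeq2 passed 4 of the 35, beside 10.5% of all genes, and limma voom 0. Of the inhibitory genes 3 of 28 passed in edgeR: the scavenger-receptor family brakes Cd5 and Cd6 fell and the phosphatase Ptpn11, also known for promoting Ras signalling, rose. Cd5 averaged 615 ± 20.1 CPM in dKO, 933 ± 38.6 CPM in Usp21 KO and 924 ± 27.7 CPM in WT (SD, n = 3 each), with log2 fold changes of -0.60 against Usp21 KO (adjusted p = 0.00122) and -0.59 against WT (0.00175). Cd5 is a membrane protein whose level on T cells is known to follow the strength of TCR signals. Cd6 was at -0.47 against Usp21 KO (0.00859) and -0.32 against WT (0.0319), and Ptpn11 at 0.37 against WT (0.0129). Of the TCR-induced genes, Tnfrsf18 (-0.56, adjusted p = 0.0299) and Tnfrsf4 (-0.54, 0.0476), costimulatory receptors of Treg cells, fell against WT, and 19 of 21 did not pass. Against Usp21 KO, where 4.9% of all genes passed, the NF-kB subunits Rela (-0.36, 0.0112) and Nfkb1 (-0.30, 0.0431), Cd5, Cd6 and Tnfrsf4 (-0.59, 0.0391) passed, all lower. In Usp21 KO against WT 0 genes of the 3 lists passed in edgeR, DESeq2 or limma voom. An unadjusted p under 0.05 in edgeR was found in 2, 1 and 0 genes of the lists, beside 10.6% of all genes.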

How the data were processed

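Raw counts per Ensembl gene were deposited by the authors, 1 column for each of the 9 libraries. The submitters' processing notes name genome build mm10 and the tools HTSeq 0.6.1p1, STAR, cutadapt 1.13 and DESeq2 1.14.1. Their settings, including strand, and the annotation release are not given in the sources used here, so reads of genes overlapping on opposite strands may be mixed. Coordinates come from GENCODE M21 (GRCm38, the same build).

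The tests used edgeR 4.0.16 under R 4.3.3 on the deposited counts (filterByExpr, TMM, robust glmQLFit and glmQLFTest, group as the only term, all 9 libraries). An SE is the size of the log2 fold change divided by the square root of F. TMM factors were 1.04–1.05 in dKO and 0.964–0.991 elsewhere. The steps were tested on simulated data. DESeq2 1.42.0 and limma 3.58.1 (voom) were alternatives. No pair of libraries matched within sampling noise (lowest chi-square per degree of freedom 5.1).

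The deviations of same-numbered dKO and WT libraries from their group means correlated at 0.124, 0.259 and 0.118, above the 0.1 set for pairing. Those of Usp21 KO with WT (-0.264, -0.268 and 0.161) and with dKO (-0.109, -0.136 and 0.073) did not all reach it. Unlike-numbered dKO and WT libraries ran from -0.193 to 0.101. Usp21 KO replicate 1 was at 0.49 with WT replicate 2 and 0.255 with dKO replicate 2, but at -0.394 and -0.181 with replicate 3 of those groups. Values above 0.1 were thus not particular to shared numbers. Members, roles and gene lists were chosen with earlier results of these data known. Genes described with full values are those that passed, the member with the smallest p in each step without a call, and the 3 highest per kilobase in WT; others described for the order of their libraries were chosen after their values were seen.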

Additional observations from a re-analysis of the deposited data

How the results depend on the processing

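Counts of members that passed moved with the setting. Over the 18 alternatives, 0 values of the members called in edgeR changed sign, while of 828 values of the 46 members in each comparison 22 changed sign in dKO against WT, 29 in dKO against Usp21 KO and 32 in Usp21 KO against WT. In dKO against WT the 4 members became 9 with DESeq2, 13 in the 6 libraries alone and 16 with the replicate block on those 6, and 0 to 13 when 1 library was left out. In dKO against Usp21 KO the 6 became 14 with DESeq2, 1 in the 6 libraries alone, 0 with the replicate block on those 6 (edgeR; 14 at an unadjusted p under 0.05), and 1 to 14 when 1 library was left out. In Usp21 KO against WT the 0 of edgeR became 1 with DESeq2. Over all genes, the 866 that passed in dKO against WT became 1581 with DESeq2, 2315 in the 6 libraries alone, 2961 with the replicate block on those 6, and 193 to 2340 when 1 library was left out; the 735 in dKO against Usp21 KO became 1728, 147, 8, and 168 to 2192. The 2 in Usp21 KO against WT became 219 with DESeq2. The cause was not tested.

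With the replicate number as a block in all 9 libraries, 3 members passed in dKO against WT (Fyb was lost), 4 in dKO against Usp21 KO (Orai1 and Rasgrp1 were lost) and 0 in Usp21 KO against WT (7 at an unadjusted p under 0.05), beside 606, 461 and 2 of all 14994 genes; the block changed no other call among the members.

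Library totals in place of TMM factors moved the median log2 fold change of activators and brakes to -0.012 and -0.035 in dKO against WT and to -0.034 and 0.025 in dKO against Usp21 KO, with the median of all genes shifted by 0.099 and 0.094, and raised the share of higher genes among those that passed to 77.4% (52.1% with TMM) and 69.9% (34.7%). Leaving out 1 library gave -0.129 to -0.095 for activators and -0.156 to -0.107 for brakes in dKO against WT, -0.15 to -0.094 and -0.113 to -0.053 in dKO against Usp21 KO, and -0.01 to 0.042 and -0.079 to -0.006 in Usp21 KO against WT. With 3 libraries a group, an exact permutation test on a single value cannot go below 0.1.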
